A study of Homo sapiens with 16 samples.

Results

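Nodal signalling was followed here through 7 genes: the ligands NODAL and GDF3, the co-receptor gene TDGF1, and the secreted antagonists LEFTY1, LEFTY2, CER1 and FST. They were chosen by name, as rows of the deposited expression table whose gene symbols include one of them, with the row of highest mean where a gene had several. The 7 genes were found on 6 distinct rows of 18495. LEFTY1 and LEFTY2, which both lie on chromosome 1, share a pair of rows that both carry the symbols of both genes, so the same row stands for both and neither can be read alone. TDGF1 is listed under its present symbol CRIPTO and was matched through its gene ID. Both of its rows also carry CRIPTO3, a copy of the gene on chromosome X. NODAL, GDF3, CER1 and FST each have 1 row with 1 symbol.

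RNA came from H9 cells, 1 established line of human embryonic stem cells, measured on Human Exon 1.0 ST arrays. Undifferentiated cells (day 0) were cultured with mouse embryonic fibroblast feeders or on Matrigel, in medium conditioned by such feeders that held 8 ng/ml of basic FGF. The other groups had 1, 3 or 5 days of activin A at 100 ng/ml in RPMI-1640 with rising fetal bovine serum, a protocol that leads toward endoderm. There were 4, 3, 3 and 4 biological samples at days 0, 1, 3 and 5, and replicate 4 of days 0 and 5 was averaged over a pair of technical arrays. Medium, serum and activin changed together with time and cannot be told apart, and the labels do not say whether replicates came from separate cultures, so p-values measure the spread between these samples.

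Nodal is a secreted TGF-beta family ligand that signals through the same type I and type II receptors as activin and through SMAD2 and SMAD3, but unlike activin it needs an EGF-CFC co-receptor such as TDGF1. GDF3 is a related ligand. The pathway is known for switching on its own inhibitors: LEFTY1 and LEFTY2 block the co-receptor and Nodal, CER1 binds Nodal in the extracellular space, and FST (follistatin) binds activin. In human embryonic stem cells the pathway helps to keep the undifferentiated state at moderate activity and drives primitive streak and endoderm genes at high activity.

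All levels below are log2(intensity + 1), and a difference of 1 is a doubling on that scale. Before the log, the median intensity of an array ran from 245.1 to 246.3. The 9 pluripotency markers averaged 12.34 to 12.79 over the day 0 samples and 10.94 to 11.71 at day 5, and the 6 endoderm markers averaged 6.30 to 7.40 at day 0 and 10.69 to 11.67 at day 5. One library, labelled replicate 2 of day 3, differed from the other samples of its group. Its median correlation with them over all rows was 0.83, and its endoderm markers averaged 6.89 against 10.76 and 11.22 in replicates 1 and 3. The average of its pluripotency markers was close to those replicates, at 11.76 against 11.51 and 11.69, and below every day 0 sample. Single markers differed more, in both directions, from day 3 means that include this library. DPPA4 stood at 13.4 against 12.19 and ZFP42 at 12.22 against 10.86, while LIN28A stood at 12.02 against 13.09 and SALL4 at 10.43 against 11.66. Of these 9 markers, ZFP42 and DPPA4 lay above their day 0 means in this library and the others below. Where this library changed a call, an order of levels or an overlap of ranges, the value without it is given too. Replicate 2 of day 5 also differed from its group, with a median correlation of 0.858 against 0.935 to 0.939 in the others. It had the lowest averages of day 5 for pluripotency markers (10.94) and endoderm markers (10.69), and the lowest FST level of day 5 (10.88). Ranges of adjusted p over the alternative settings leave out array weights, whose estimation did not converge. In bulk RNA, fewer cells that express a gene and less RNA per cell cannot be told apart.

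The sequences just upstream of CER1 and NODAL are shown, an antagonist and a ligand. Activin and Nodal act on DNA through SMAD proteins and their partner FOXH1. Of the genes searched, only these held a match before the start site, so they do not stand for the others. RefSeq windows (GRCh38.p14, 250 bases before to 50 after a start site) were present for 5 of the 7 genes, with a pair of start sites for TDGF1. They were searched on both strands for the FOXH1 letters AATCCACA and AATACACA and for the SMAD letters CAGAC, and no match overlapped another. The runs below are the 250 bases before each start, 5′ to 3′ on the gene's strand, with matches in capitals. The CER1 run covers chr9:14722734-14722983 and the NODAL run chr10:70441682-70441931, both upstream of the gene on the minus strand.
CER1: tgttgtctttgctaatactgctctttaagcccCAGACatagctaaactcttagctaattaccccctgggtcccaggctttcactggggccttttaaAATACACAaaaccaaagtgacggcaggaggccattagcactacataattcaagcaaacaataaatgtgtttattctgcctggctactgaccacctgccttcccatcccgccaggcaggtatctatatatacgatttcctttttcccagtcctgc
NODAL: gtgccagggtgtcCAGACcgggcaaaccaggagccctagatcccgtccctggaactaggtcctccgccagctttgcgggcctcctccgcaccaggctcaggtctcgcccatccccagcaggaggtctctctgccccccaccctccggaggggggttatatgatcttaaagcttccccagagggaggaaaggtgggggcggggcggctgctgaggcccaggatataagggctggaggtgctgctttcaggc

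The CER1 window held AATACACA with its first base 154 bases before the start and CAGAC at 218 bases before it, both on the gene's strand. Either FOXH1 form was found in 1.58% of 35116 windows of this length, and CER1 was the only gene of the 5 with one. NODAL held CAGAC at 237 bases before the start. GDF3 held it on the opposite strand, 2 and 25 bases after the start, and the windows of FST and TDGF1 held none of the letters searched. CAGAC was present in 45.3% of all windows, so a match is common. A match is a stretch of letters and not a measured binding site.

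**Figure D1:**
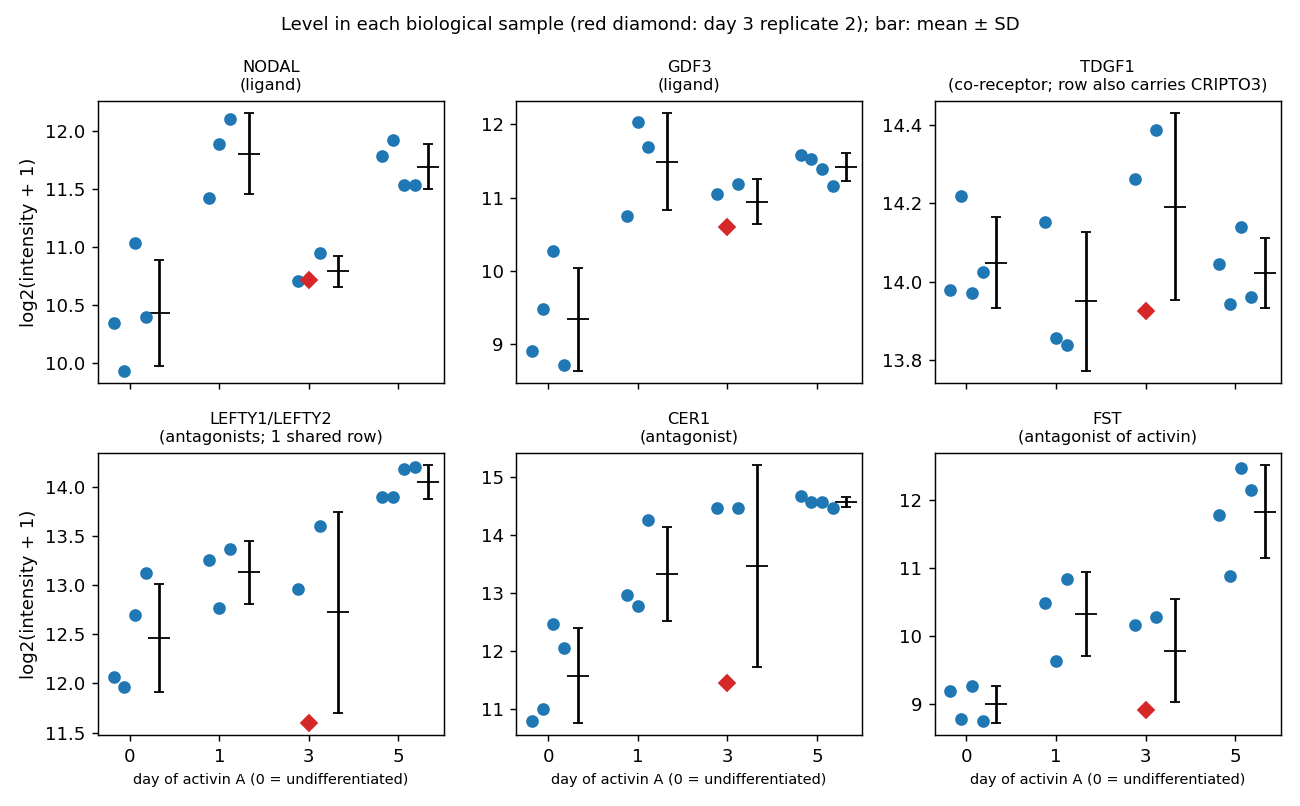
Level of each gene, as log2(intensity + 1) on the y axis, in every biological sample by day on the x axis, with the group mean ± SD beside the points and day 3 replicate 2 as a red diamond. NODAL was highest at days 1 and 5, GDF3 was above day 0 in every treated sample, CER1, FST and the shared LEFTY1/LEFTY2 row were highest at day 5, and TDGF1 stayed between 13.84 and 14.39. The y axes differ between panels.

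NODAL, the ligand that names the pathway, stood at 10.35, 9.93, 11.04 and 10.39 in the 4 day 0 samples and at 11.43, 11.89 and 12.11 in the 3 day 1 samples. Every day 1 sample lay above every day 0 sample. The day 1 mean was 11.81 ± 0.35 (SD, n = 3) against 10.43 ± 0.46 (n = 4), a difference of 1.38 ± 0.27 (SE, adjusted p 0.107 in limma). At day 3 the values were 10.71, 10.71 and 10.95, below all day 1 samples and within the range of day 0. Here day 3 replicate 2, at 10.71, lay with the other day 3 samples. At day 5 NODAL stood at 11.79, 11.92, 11.54 and 11.53, again above every day 0 and day 3 sample. It rose by 1.27 ± 0.25 at day 5 against day 0 (2.41-fold, adjusted p 0.0103). Day 5 and day 1 overlapped, with a difference of -0.11 ± 0.27 (adjusted p 0.933).

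The lower NODAL level at day 3 did not pass the test on either side. Day 3 differed from day 1 by -1.02 ± 0.29 (adjusted p 0.257) and day 5 differed from day 3 by 0.91 ± 0.27 (adjusted p 0.399). These 2 comparisons were added after the values had been seen. NODAL was 1 of 6 rows that lay wholly lower at day 3 than at day 1, where 7.53% of all rows did, and 0 of 6 were called lower there (1 of 6 at an unadjusted p under 0.05, beside 1595 of 18495 in either direction), where 0.027% of all rows were, or 0.843% without day 3 replicate 2, with 0 of 6 again.

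GDF3, a second ligand of the family that is also known as a gene of undifferentiated cells, stood at 8.90, 9.47, 10.27 and 8.70 at day 0 and at 10.75, 12.03 and 11.69 at day 1. All day 1 samples were above all day 0 samples. At day 3 it stood at 11.05, 10.59 and 11.18, and at day 5 at 11.58, 11.53, 11.39 and 11.16. The activin-treated samples of all 3 days lay above the day 0 samples and their own ranges overlapped from day to day. GDF3 rose by 2.08 ± 0.36 at day 5 (4.23-fold, adjusted p 0.00441). It was higher by 2.15 ± 0.39 at day 1 (adjusted p 0.0907) and by 1.61 ± 0.39 at day 3 (adjusted p 0.178). Without day 3 replicate 2 it rose at both times, by 2.15 (adjusted p 0.0465, range over the alternatives 0.0354 to 0.426) and by 1.78 (adjusted p 0.0445, range 0.0383 to 0.589).

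TDGF1, the cell surface co-receptor for Nodal and a marker of human embryonic stem cells, stood at 13.98, 14.22, 13.97 and 14.03 at day 0. Its values were 14.15, 13.86 and 13.84 at day 1, 14.26, 13.93 and 14.39 at day 3, and 14.04, 13.94, 14.14 and 13.96 at day 5. All 4 groups overlapped. At day 3 this overlap rested on replicate 2, at 13.93: the other day 3 samples lay above every sample of days 0, 1 and 5. The day 5 mean of 14.02 ± 0.09 (n = 4) differed from the day 0 mean of 14.05 ± 0.12 (n = 4) by -0.03 ± 0.18 (adjusted p 0.964), with a 95% interval of -0.425 to 0.371 from the limma fit. The interval was -0.53 to 0.331 at day 1 and -0.288 to 0.572 at day 3. Day 3 differed from day 0 by 0.14 ± 0.20 (adjusted p 0.913) and, without replicate 2, by 0.27 ± 0.20 (adjusted p 0.642). The second TDGF1 row gave -0.08 ± 0.18 at day 5. The highest value of any row on any array was 14.89, so both TDGF1 rows lay near the top of the measured range, and how that bears on the size of a change was not tested.

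LEFTY1 and LEFTY2, antagonists that are themselves induced by the pathway, shared the row described here. It stood at 12.07, 11.96, 12.70 and 13.13 at day 0 and at 13.26, 12.77 and 13.37 at day 1, and these ranges overlapped. At day 3 it stood at 12.97, 11.60 and 13.60, the middle value being replicate 2, the lowest of all 14 samples. Day 3 differed from day 0 by 0.26 ± 0.42 (adjusted p 0.925) and, without replicate 2, by 0.82 ± 0.34 (adjusted p 0.289). At day 5 it stood at 13.90, 13.90, 14.19 and 14.21, above every sample of the other days. It rose by 1.58 ± 0.39 at day 5 against day 0 (2.99-fold, adjusted p 0.0311). The call was lost without any 1 of day 0 replicates 1 (adjusted p 0.103), 2 (0.107) or 3 (0.0574) or day 5 replicates 1 (0.0681), 2 (0.0541), 3 (0.0755) or 4 (0.0682), with a range of 0.00379 to 0.107 over the alternatives. The other row that carries both symbols stood at 12.03 to 12.61 at day 0 and 13.23 to 13.65 at day 5 and rose by 1.12 ± 0.27 (adjusted p 0.0258). At day 3 the rows disagreed on replicate 1: the other row stood at 11.83 in replicate 1, 11.86 in replicate 2 and 12.89 in replicate 3. At day 1 the rows differed from day 0 by 0.67 ± 0.42 and 0.16 ± 0.29 (adjusted p 1 for both).

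CER1, a secreted Nodal antagonist of anterior endoderm, stood at 10.80, 11.00, 12.47 and 12.06 at day 0. It stood at 12.96, 12.77 and 14.26 at day 1, all above day 0, with replicate 3 well above the other 2. At day 3 replicates 1 and 3 both stood at 14.46 and replicate 2 at 11.46, inside the day 0 range. At day 5 the values were 14.66, 14.57, 14.56 and 14.47. The SD between samples was 0.81 at day 0 and 0.08 at day 5 (n = 4 each), where CER1 lay close to the highest value on the arrays (14.89). CER1 rose by 2.98 ± 0.62 at day 5 (7.9-fold, adjusted p 0.0131, lost narrowly without day 0 replicate 1, 0.0513, or 2, 0.05, with a range of 0.000543 to 0.0513 over the alternatives). At day 1 it was higher by 1.75 ± 0.67 (adjusted p 0.661). At day 3 the difference was 1.88 ± 0.67 (adjusted p 0.375), and without replicate 2 it rose by 2.88 ± 0.49 (7.36-fold, adjusted p 0.00687, range over the alternatives 0.00687 to 0.75).

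FST, which binds and neutralises activin, stood at 9.19, 8.78, 9.26 and 8.74 at day 0 and at 10.47, 9.63 and 10.83 at day 1, all above day 0. At day 3 replicates 1 and 3 stood at 10.15 and 10.27 and replicate 2 at 8.90, again inside the day 0 range. At day 5 FST stood at 11.78, 10.88, 12.46 and 12.15, above every sample of the other days. It rose by 2.83 ± 0.40 at day 5 (7.09-fold, adjusted p 0.00131), a call kept in each of the 27 alternatives. At day 1 the difference was 1.32 ± 0.43 (adjusted p 0.505) and at day 3 it was 0.78 ± 0.43 (adjusted p 0.681), or 1.22 (adjusted p 0.178) without replicate 2. FST was also higher at day 5 than at day 1, by 1.51 ± 0.43 (adjusted p 0.0859). Without day 3 replicate 2 that rise was called (adjusted p 0.0337, range over the alternatives 0.00454 to 0.294), as it was without day 5 replicate 2 (adjusted p 0.0348), where it was 1.82.

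Markers of other cell types were read beside the day 5 results. The 6 fibroblast markers, all with a row, averaged 6.74 to 6.98 over the day 0 samples and 6.97 to 8.02 over the day 5 samples. The members did not go one way: the group mean of LUM was 4.18 at day 0 and 8.74 at day 5, POSTN stood at 5.53 and 6.33 and DCN at 4.72 and 5.24. COL1A1 stood at 10.85 and 9.05, COL1A2 at 9.83 and 9.23 and COL3A1 at 6.05 and 5.89. The 4 neuroectoderm markers averaged 4.36 to 5.15 at day 0 and 5.73 to 6.32 at day 5, with PAX6 at 4.39 and 8.73 and SOX1 at 4.46 and 4.49. The 6 mesoderm markers averaged 6.90 to 7.20 at day 0 and 6.64 to 7.27 at day 5, and the 4 trophoblast markers 4.66 to 5.50 and 4.56 to 5.01. Mesoderm members did not go one way either: HAND1 stood at 4.87 and 6.93 and MESP1 at 7.73 and 7.99. KDR stood at 10.7 and 9.48 and TBXT at 7.16 and 6.58, and FOXF1 and TBX6 were also lower at day 5. The lowest group mean of any marker was 2.91, for NEUROG2 at day 1. No background level was set here, so a low mean does not show that a gene was expressed. Their part in the rises of the 7 genes was not tested.

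**Figure D2:**
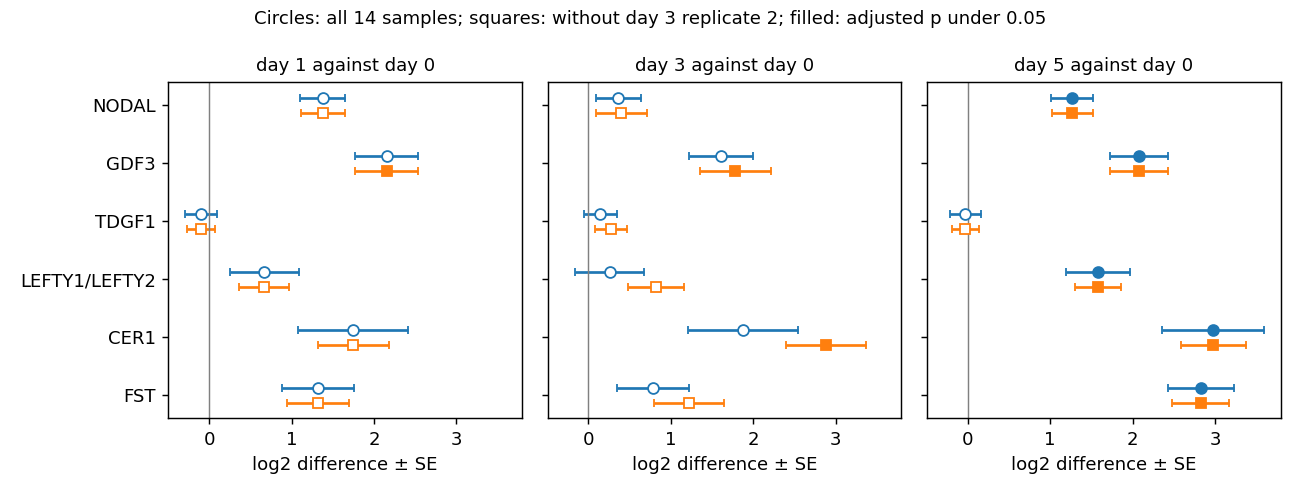
Log2 difference from day 0 ± SE (x axis) for each gene (y axis) at days 1, 3 and 5 from the limma fit, with all 14 samples (circles) and without day 3 replicate 2 (squares), filled where the adjusted p was under 0.05. All symbols but those of TDGF1 are filled at day 5, whereas at day 3 CER1 lies at 1.88 with all samples and at 2.88 without that library.

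Read as a set against day 0, 6 of the 7 genes (5 of 6 rows) rose at day 5, where 2.56% of all rows were called higher, or 4.07% without day 3 replicate 2, with the same 6 genes called. The exception was TDGF1. Without day 0 replicate 1 or without day 0 replicate 2 the count was 3 genes, NODAL, GDF3 and FST. The same 5 rows lay wholly above day 0, beside 6.07% of all rows. The median difference of the 6 rows was 1.83, beside -0.02 over all rows. These shares describe the 7 genes and are not a test of them.

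At day 1, 0 of 6 rows were called by limma, where 0% of all rows were called higher. At an unadjusted p under 0.05 there were 4 of 6, beside 1116 of all 18495 rows in either direction. Day 3 replicate 2 bears on this comparison solely by its share in the common error estimate. With it left out, GDF3 was called higher, beside 0.135% of all rows. NODAL, GDF3, CER1 and FST lay wholly above day 0, beside 4.86% of all rows. The median difference of the 6 rows was 1.35, beside 0.03 over all rows.

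At day 3, 0 of 6 rows were called by limma, beside 0.00541% of all rows called higher. At an unadjusted p under 0.05 there were 2 of 6, beside 1584 of all 18495 rows in either direction. Without replicate 2 the ligand GDF3 and the antagonist CER1 were called higher, beside 2.05% of all rows. With all samples only GDF3 of the 6 rows lay wholly above day 0, beside 3.27%. Without replicate 2, CER1, FST and TDGF1 did so too, but the share of all rows was not counted for that setting. Both ligands lay above the day 0 mean in replicate 2, and the other 4 rows lay below it. Against the day 0 range, only GDF3 (10.59) lay above in that library. NODAL, CER1 and FST lay inside it, and LEFTY1/LEFTY2 (11.60) and TDGF1 (13.93) lay below it. Against the day 0 mean, NODAL was higher by 0.286 in replicate 2 and by 0.278 and 0.519 in replicates 1 and 3, and GDF3 by 1.26 against 1.72 and 1.85. CER1 was at -0.123 in replicate 2 against 2.88 in both others, FST at -0.0912 against 1.16 and 1.28, and the LEFTY1/LEFTY2 row at -0.863 against 0.501 and 1.14, though on the other LEFTY row replicate 1 lay as low as replicate 2. TDGF1 was at -0.124 in replicate 2 against 0.213 and 0.337. This pattern rests on 1 library and was not tested.

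**Figure D3:**
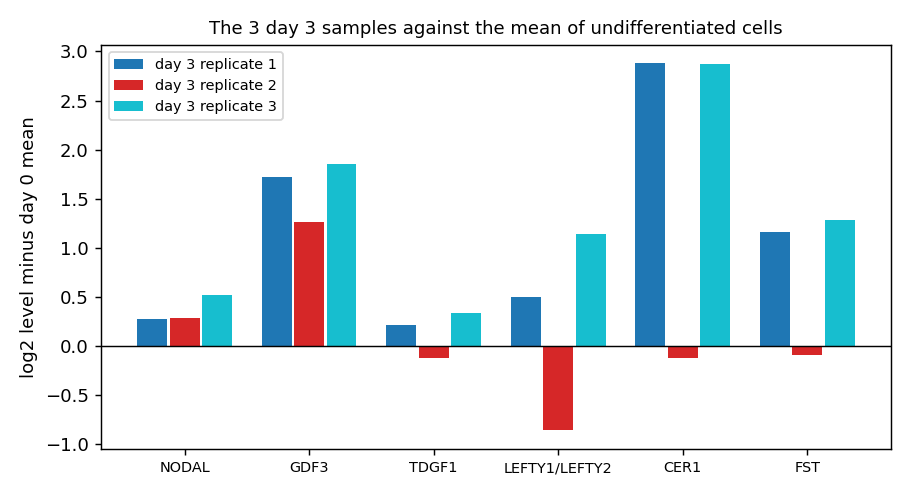
Level of each gene in the 3 day 3 samples, as the log2 level minus the day 0 mean (y axis). In replicate 2 (red) NODAL and GDF3 lay above 0 with the other day 3 samples, at 0.286 and 1.26, while CER1, FST, LEFTY1/LEFTY2 and TDGF1 lay below 0. Of these, only GDF3 lay above the range of the day 0 samples, and NODAL, CER1 and FST lay inside it.

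From day 1 to day 5, 0 of 6 rows were called by limma (2 of 6 at an unadjusted p under 0.05, beside 2684 of all 18495 rows in either direction), beside 2% of all rows called higher, and FST was called without day 3 replicate 2, beside 3.54%. The 3 antagonist rows, LEFTY1/LEFTY2, CER1 and FST, lay wholly higher at day 5 than at day 1, beside 7.08% of all rows, and the ligands overlapped. LEFTY1/LEFTY2 differed by 0.91 ± 0.42 (adjusted p 0.341) and CER1 by 1.23 ± 0.67 (adjusted p 0.452), while GDF3 differed by -0.07 ± 0.39 (adjusted p 0.969). From day 3 to day 5, 4 of 6 rows (NODAL and the 3 antagonist rows) lay wholly higher, beside 2.61% of all rows. For CER1 the gap between the groups was small, from 14.46 to 14.47. There, 0 of 6 rows were called higher (3 of 6 at an unadjusted p under 0.05, beside 1107 of 18495 in either direction), beside 0.0919% of all rows, or 0.103% without day 3 replicate 2, with 0 of 6 again. FST had the largest difference of the 6 rows, 2.04 ± 0.43 (adjusted p 0.139), or 1.61 without day 3 replicate 2. Leaving out that library took the difference of LEFTY1/LEFTY2 from 1.32 to 0.76 and that of CER1 from 1.10 to 0.10.

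In order of level, NODAL and GDF3 both ran from day 0 through day 3 and day 5 to day 1. The neighbours day 0 and day 3 overlapped for NODAL and not for GDF3, day 3 and day 5 overlapped for GDF3 and not for NODAL, and day 5 and day 1 overlapped for both. The LEFTY1/LEFTY2 row and FST ran from day 0 through day 3 and day 1 to day 5, and only day 1 and day 5 among neighbours did not overlap. Without day 3 replicate 2 the order of LEFTY1/LEFTY2 turned, with day 3 at 13.28 above day 1 at 13.13, and FST no longer overlapped between days 0 and 3. CER1 ran from day 0 through day 1 and day 3 to day 5, and only day 1 and day 3 among neighbours overlapped, which they did not without day 3 replicate 2. TDGF1 ran from day 1 through day 5 and day 0 to day 3, and all neighbours overlapped, but day 0 and day 3 did not without that library. Across the 14 samples, the Pearson correlation was 0.855 between NODAL and GDF3, 0.884 between LEFTY1/LEFTY2 and CER1, 0.875 between LEFTY1/LEFTY2 and FST and 0.837 between CER1 and FST. The correlation of TDGF1 with the other rows ran from -0.448 to 0.158. These samples share their group means and arrays, so the correlations only describe the rows.

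Among rows with 1 symbol, the pattern most like that of CER1 over the 14 samples was that of FGF17, a growth factor of the streak and endoderm (r = 0.98), then the endoderm factor GATA6 (0.956) and the organizer homeobox gene GSC (0.943). The same 3 led without day 3 replicate 2. NODAL was most like FGF8, a growth factor of the primitive streak (r = 0.879), the zinc transporter gene SLC39A8 (0.852) and the deubiquitinase gene USP3 (0.843), and without day 3 replicate 2 the third was FOXQ1 (0.849). The group means of FGF8 were 7.35, 9.66, 8.02 and 9.54 at days 0, 1, 3 and 5, the same order as those of NODAL. GDF3 was most like USP3 (0.912), the pyruvate dehydrogenase kinase gene PDK1 (0.867) and MAGEF1 (0.85), and without day 3 replicate 2 FGF8 (0.919), USP3 (0.912) and GSC (0.899). FST was most like the adhesion scaffold gene NEDD9 (0.941), BCAP31 (0.937) and the forkhead gene FOXQ1 (0.932), the same 3 as without that library, where BCAP31 came first. LEFTY1/LEFTY2 was most like TRADD (0.916), SMPD1 (0.914) and NEDD9 (0.912), and without day 3 replicate 2 all 3 were replaced, by MED17 (0.929), KLHL28 (0.914) and SMAD2 (0.901). TDGF1 was most like FKBP8 (0.849), MPHOSPH9 (0.831) and RAB10 (0.83), and only the first stayed in its top 3 without that library. TDGF1 ranged over only 0.547 across the 14 samples, and its technical arrays at day 0 differed by 0.242. All rows named here were picked as the highest among all rows with 1 symbol, so high values of r are favoured by the choice.

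The other genes of the pathway came from a list of 29, of which 27 had a row. At day 5, 7 of the 27 rose and 0 fell, beside the 2.56% of all rows called higher. The list's median difference was 0.04, beside -0.02 over all rows. CFC1, the other EGF-CFC co-receptor of Nodal, rose by 2.63 ± 0.40 (6.2-fold, adjusted p 0.00184), from 4.81 ± 0.22 (n = 4) to 7.44 ± 0.44 (n = 4), on a row that also carries CFC1B. It was also higher at day 5 than at day 1, by 3.07 ± 0.43 (adjusted p 0.00237). TDGF1 differed by -0.03 ± 0.18 on the same arrays, but the levels of these co-receptor genes were far apart. At day 5 the CFC1 mean was 7.44 and the TDGF1 mean 14.02, near the highest value on the arrays (14.89). How these levels bear on the size of either change was not tested.

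Of the 3 measured receptors, ACVR2A, a type II receptor for activin and Nodal, rose by 0.88 ± 0.22 (adjusted p 0.0317), from 8.67 ± 0.25 to 9.55 ± 0.27. ACVR1B and ACVR2B did not pass. SMAD2, which carries the signal to the nucleus, rose by 0.93 ± 0.19 at day 5 (adjusted p 0.0108) and by 0.89 ± 0.20 against day 1 (adjusted p 0.0289). Its means over days 0, 1, 3 and 5 were 11.08 ± 0.16, 11.12 ± 0.06, 11.34 ± 0.28 and 12.01 ± 0.10. SMAD3 and SMAD4 did not pass.

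The 4 measured transcription factor targets all rose at day 5, EOMES, MIXL1 and GSC by 5.33, 5.17 and 6.12. EOMES, MIXL1 and GSC were already higher at day 1, by 5.59, 5.34 and 5.26 (adjusted p 0.107, 0.0882 and 0.121 in limma). From day 1 to day 5 they differed by -0.26, -0.17 and 0.86. LHX1, a factor of anterior mesendoderm, rose by 3.67 ± 0.66 at day 5 (adjusted p 0.00593). The means of LHX1 over days 0, 1, 3 and 5 were 6.64 ± 0.32, 7.78 ± 1.36, 8.79 ± 1.55 and 10.31 ± 0.80. Among the remaining groups no gene passed at day 5. The largest difference was -0.60 ± 0.66 for the activin subunit gene INHBA among ligands, 0.38 ± 0.29 for the convertase gene PCSK6, -0.94 ± 0.89 for the antagonist gene DAND5, 0.04 ± 0.41 for FOXH1 on a row shared with PPP1R16A, and -0.45 ± 0.63 for the corepressor gene SKI. The feedback gene SMAD7 differed by -0.44 ± 0.45.

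At day 1, 0 of the 27 passed limma, beside 0% of all rows called higher, and 3 had an unadjusted p under 0.05, beside 1116 of 18495 rows. Without day 3 replicate 2, EOMES, MIXL1 and GSC were called higher, beside 0.135% of all rows. At day 3, 0 of the 27 passed limma, beside 0.00541% of all rows called higher. An unadjusted p under 0.05 was found for 6, beside 1584 of 18495 rows, in either direction. Without day 3 replicate 2, EOMES, MIXL1, GSC and LHX1 were called higher, beside 2.05% of all rows. From day 1 to day 5, CFC1 and SMAD2 rose, beside 2% of all rows, and LHX1 also rose without day 3 replicate 2 (2.54, adjusted p 0.0182), beside 3.54%.

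**Figure D4:**
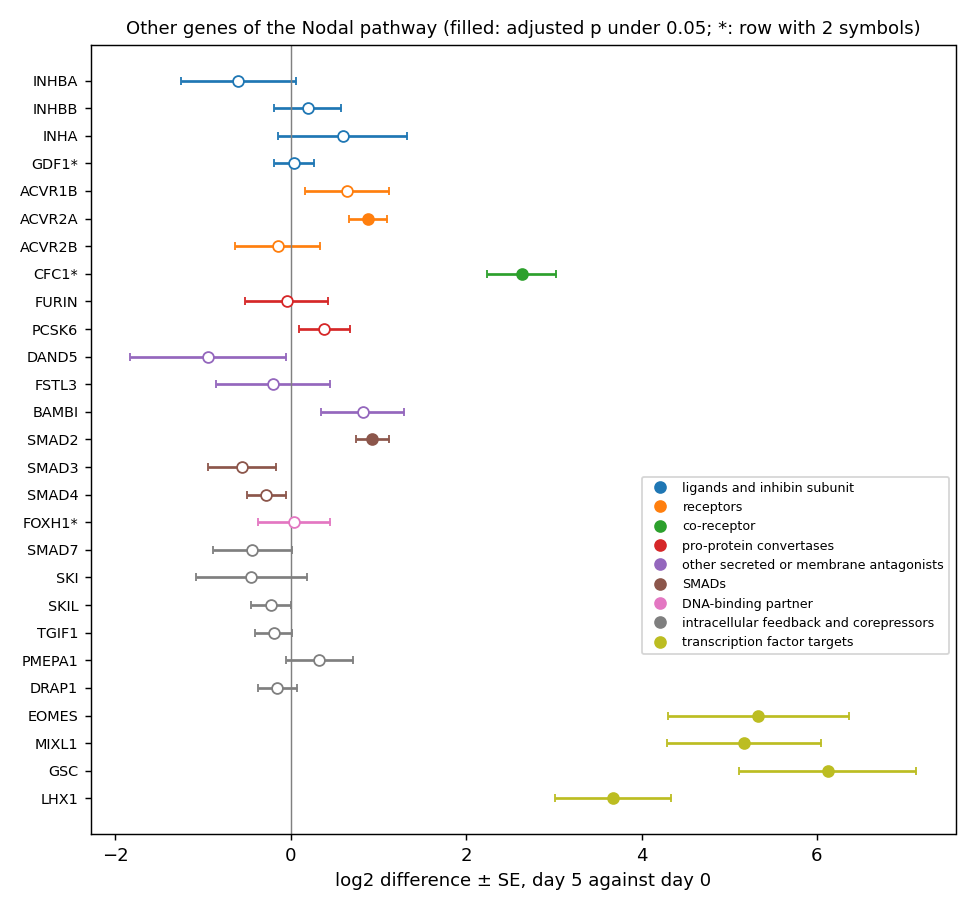
Log2 difference of day 5 against day 0 ± SE (x axis) for the 27 other pathway genes with a row (y axis), coloured by role and filled where the adjusted p was under 0.05, with rows of 2 symbols starred. The 7 filled genes are ACVR2A, CFC1, SMAD2 and the 4 transcription factor targets, and the ligands, convertases, antagonists and intracellular feedback genes of this list are all open.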

How the data were processed

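Per the labels' protocols, ribosomal RNA was removed, and amplified cDNA was fragmented and labelled with biotin. The table deposited by the authors holds gene-level intensity on a linear scale for 18495 rows and 16 arrays, with genome build hg18 per the submitters' processing notes. How probes were summarised and normalized is not given in the sources used here. A total of 636 values were below 0. Depth does not apply to arrays, and their number limits the precision.

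Here log2(value + 1) was taken, technical pairs were averaged with avearrays, and limma 3.58.1 in R 4.3.3 (lmFit, eBayes, group as the only term, 14 samples, 10 residual and 3 prior degrees of freedom) compared the groups over all 18495 rows. P-values were adjusted by the Benjamini-Hochberg method, with a threshold of 0.05. The fit was tested on simulated data.

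The 7 genes, the list of 29 pathway genes and the markers were chosen with earlier results of these data known. All 7 genes are named. From the pathway list, genes past the test were named by role, or else the gene with the largest difference at day 5 (SMAD7 and the members named as not passing were chosen after their values were seen). The 3 rows of highest Pearson r were named per row. Alternatives covered technical replicates, blocking, normalization, the dimmest 25% of rows, variance models, array weights, a pseudocount of 16, averaging of rows, and left-out samples. Array medians were already nearly equal, and quantile normalization and median centring barely moved the estimates of the 7 genes. FST at day 5 against day 0 was 2.826 in the main fit and 2.826 and 2.825 with these settings, so they check little. Sequences came from RefSeq (GRCh38.p14). Figures used Python 3.11.15 and matplotlib 3.10.9.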

Additional observations from a re-analysis of the deposited data

How the results depend on the processing

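The count of genes past the test at day 5 against day 0 (6 of 7) ranged from 3 to 6 when single samples were left out and was 6 in every other alternative. It was 0 at day 1 (0 to 1 leaving out single samples), 0 at day 3 (0 to 2) and 0 at day 5 against day 1 (0 to 1), the highest values coming without day 3 replicate 2, and for the last also without day 5 replicate 2. With array weights those 3 counts were 6, 3 and 4, but the estimation stopped before it converged and gave day 1 replicate 1 a weight of 17.3, so these counts are not relied on. With replicate 2 of days 3 and 5 both left out, an alternative added after seeing the data, they were 2, 2 and 1.

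The main fit did not pair samples by replicate number. The correlation of same-numbered deviations from the group means ran from -0.284 to 0.513 over the comparisons. The highest were 0.513 for replicate 2 of days 5 and 1 and 0.512 for replicate 4 of days 5 and 0. Whether some numbers mark a shared batch was not tested. With the replicate block the count at day 5 against day 1 was 1 (FST, adjusted p 0.016) and no other call changed.

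Directions reversed only for differences that had not been called. TDGF1 at day 5 against day 0 was 0.0209 with technical replicate 2 alone and -0.0664 to 0.0299 leaving out single samples. With array weights TDGF1 was 0.0724 at day 1 against day 0 and -0.0732 at day 5 against day 1. At day 5 against day 1, NODAL was 0.0917 with array weights and -0.30 to 0.0373 leaving out single samples, and GDF3 was 0.49 with array weights, 0.0747 with the replicate block and -0.44 to 0.20 leaving out single samples. LEFTY1/LEFTY2 at day 3 against day 0 was -0.18 to 0.82 leaving out single samples. The causes were not tested. Of 648 member values under alternatives, 605 kept direction and side of the threshold, 9 lost a call, 22 gained one and 12 reversed. These counts include the array weights, which are not relied on and which supplied many of the gained calls. They also include quantile normalization and median centring, which barely moved the values.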

Other observations

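Undifferentiated samples were not alike in these genes. Day 0 replicate 3 had the highest level of that group for NODAL (11.04), GDF3 (10.27), CER1 (12.47) and FST (9.26), and its endoderm markers averaged 7.40 against 6.30 to 6.76 in the other day 0 samples. The pluripotency markers of the same sample averaged 12.34, the lowest of the group. For the LEFTY1/LEFTY2 row day 0 replicate 4 was highest, at 13.13. Among the 4 genes with the highest level in replicate 3, GDF3 differed most between the technical arrays of day 0 replicate 4, by 0.482, against 0.212 for CER1.

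At day 1, replicate 3 had the highest levels of that group for NODAL (12.11), LEFTY1/LEFTY2 (13.37), CER1 (14.26) and FST (10.83), and its endoderm markers averaged 9.08 against 7.39 and 7.30 in replicates 1 and 2. GDF3 was highest in replicate 2 (12.03). These were single samples, and the differences within groups were not tested.

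The LEFTY1/LEFTY2 row held the same intensity, 15230, in day 5 replicates 1 and 2, and the same level, 14.21, on both technical arrays of day 5 replicate 4. Equal values were not particular to that row. The second TDGF1 row held 15035 in day 1 replicate 2 and day 3 replicate 2. CER1 in day 1 replicate 3 and TDGF1 in day 3 replicate 1 both held 19645. The cause was not tested. At day 3 the second row of both genes stood at 11.83, 11.86 and 12.89 in replicates 1 to 3, where the first stood at 12.97, 11.60 and 13.60.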
